A study of Mus musculus with 6 samples.

Results

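The complement genes measured here were 9 of the 28208 genes shared by all kidneys: C1qa, C1qb, and C1qc, C2 and C4b, C3, Cfb, and the receptor genes C3ar1 and C5ar1. They were chosen by symbol from the feature lists, and all 9 were found. Their raw unique molecular identifier (UMI) counts, each UMI standing for 1 captured RNA molecule, were summed per kidney and class of cells. Single-cell suspensions of 6 mouse kidneys were sequenced by droplet scRNA-seq, with 1 library per kidney. The naive group held 2 untransplanted kidneys of male B6 mice aged 10 to 12 weeks. The rejecting group held 2 BALB/c kidneys, labeled 6 to 7 weeks and male, that had been grafted into B6 males from which both own kidneys had been removed and that received no further treatment. The tolerized group held 2 such BALB/c grafts in B6 recipients that were also infused with BALB/c splenocytes treated with ethylenecarbodiimide (ECDI), a cross-linking agent used to make donor cells tolerogenic. Grafts were taken on day 15 and hold both donor BALB/c cells and infiltrating recipient B6 cells, which were not separated here. Per the study's flow cytometry of other day 15 grafts, their myeloid cells were almost all of recipient origin. Per the study, kidneys of several groups were handled together, in 2 experiments. In any comparison with naive kidneys, transplantation could not be told apart from kidney strain, labeled age, or the gene list behind the matrices. All of them differed together. A difference in library preparation between naive kidneys and grafts, if there was one, could not be told apart either.

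Complement is a cascade of plasma proteins that marks cells for phagocytosis, attracts leukocytes, and can lyse membranes. The classical pathway starts when C1q, built from the products of C1qa, C1qb, and C1qc, binds antibody or a cell surface, after which C4 and C2 are cleaved to form a C3 convertase. The alternative pathway amplifies C3 cleavage through factor B, encoded by Cfb, and the released fragments C3a and C5a act on the receptors C3aR and C5aR1. Liver makes most circulating complement, macrophages are the main source of C1q, and kidney tubules are known to make C3 and C4 locally when injured.

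The matrices held 8532 to 13378 barcodes and 34874702 to 96803926 UMIs per kidney, and 5608 to 10483 cells per kidney were used. The naive matrices listed 28692 genes and named no software version, whereas the transplanted matrices listed 31053 genes and named CellRanger 3.0.1. Mitochondrial UMIs made up a median of 25.5% and 24.9% of a cell's UMIs in the naive pair, 13.2% and 5.38% in the rejecting pair, and 7.46% and 13.7% in the tolerized pair. The first rejecting kidney had the lowest median depth, 2542 UMIs per cell, and held 720 of the 766 cells of an unnamed cluster. Cells were clustered without any complement gene and given class names with the ending "-like" from marker genes, which also excluded complement genes. Macrophage-like cells numbered 37 and 103 in the naive pair, 1456 and 1514 in the rejecting pair, and 1116 and 374 in the tolerized pair. The summed level of their 11 markers was 8252 and 9538 CPM (UMIs of a gene scaled to a fixed total for each class sum) in naive kidneys and 22460 to 26005 CPM in transplanted kidneys. Naive macrophage-like cells lay mostly in another cluster than transplanted ones, had median depths of only 2125 and 2988 UMIs, and carried 5962 and 5988 CPM of the 15 proximal tubule markers, compared with 115 to 960 CPM in transplanted kidneys. They also carried 6058 and 6236 CPM of the 9 conventional DC markers, compared with 2499 to 3073 CPM in grafts, and less of the macrophage markers than the 43 and 48 macrophage/monocyte-like cells of the same kidneys (26655 and 19612 CPM). The naming of graft macrophage-like cells rests on a threshold chosen after the clusters' marker counts were seen: clusters of 3525 and 182 of the 4600 cells were macrophage/monocyte-like when a marker had to be found in 10% rather than 20% of a cluster's cells. Proximal tubule-like cells, the largest kidney class, numbered 4851 and 3783, 2141 and 1131, and 3527 and 2277, and those of naive and of transplanted kidneys also lay mostly in different clusters. The same held for distal convoluted tubule-like cells, for those like collecting duct or loop of Henle, and for endothelium-like cells, where a cluster with 165 and 143 of the 264 and 237 naive cells had 4 cells from all grafts. The naive pair shared 111 barcodes, pairs of grafts shared 18 to 35, and a naive kidney and a graft shared 0 to 4. Whether libraries of naive kidneys and grafts were made with the same chemistry was not tested.

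All 9 genes lie on the minus strand. In GRCm38, the C1q genes form a cluster at chr4:136880129-136886187 (C1qb), chr4:136889804-136893065 (C1qc), and chr4:136895917-136898803 (C1qa). C4b (chr17:34728380-34743882), Cfb (chr17:34856374-34862518), and C2 (chr17:34862604-34898265) lie together in the MHC class III region, and C3 lies elsewhere on the same chromosome at chr17:57203970-57228136. C3ar1 is at chr6:122847138-122856161 and C5ar1 at chr7:16246743-16259540. Of the exonic bases, 42.8% of those of C2 and 79.5% of those of Cfb are also part of the read-through gene Gm20547, which had 1 UMI in all cells, so counts of C2 and Cfb are uncertain to the extent that reads were split among these genes. C4a, a close paralog of C4b, was not analysed here, and C4b counts may depend on how reads shared with it were assigned.

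Promoter sequence is shown for C1qb and C1qc, because C1q their levels followed each other over classes and kidneys, and for C3, because it was measured in both macrophage-like and tubular cells. RefSeq windows of 300 bases, from 250 before to 50 after the annotated start, were given for 5 of the 9 genes, not for C1qa, C2, C4b, or Cfb. They are printed 5′ to 3′ on the minus strand of GRCm38.p6, at chr4:136886151-136886450 for C1qb, chr4:136892865-136893164 for C1qc, and chr17:57228087-57228386 for C3. Capitals mark matches to the motifs searched on both strands.
C1qb: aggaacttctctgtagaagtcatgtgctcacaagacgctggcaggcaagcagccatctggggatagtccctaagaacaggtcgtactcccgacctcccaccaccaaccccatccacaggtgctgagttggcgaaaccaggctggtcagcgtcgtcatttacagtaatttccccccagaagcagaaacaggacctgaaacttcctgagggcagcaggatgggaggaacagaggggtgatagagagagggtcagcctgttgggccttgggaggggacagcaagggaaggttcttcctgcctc
C1qc: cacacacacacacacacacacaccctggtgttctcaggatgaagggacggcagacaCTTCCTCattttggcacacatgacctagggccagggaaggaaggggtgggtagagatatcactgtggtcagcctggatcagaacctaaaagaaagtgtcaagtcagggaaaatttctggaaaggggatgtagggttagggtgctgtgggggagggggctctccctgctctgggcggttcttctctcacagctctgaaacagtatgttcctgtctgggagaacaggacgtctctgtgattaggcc
C3: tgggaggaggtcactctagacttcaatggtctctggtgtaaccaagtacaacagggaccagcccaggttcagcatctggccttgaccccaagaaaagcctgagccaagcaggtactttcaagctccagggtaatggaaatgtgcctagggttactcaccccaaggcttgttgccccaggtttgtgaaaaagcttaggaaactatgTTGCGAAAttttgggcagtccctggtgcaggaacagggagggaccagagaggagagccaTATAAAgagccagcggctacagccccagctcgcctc
The capitals in C1qc are GAGGAAG, a core of sites bound by the myeloid factor PU.1, read on the opposite strand, and these letters occurred in 13.6% of 32851 promoters. In C3 the first capitals match TTGCNNAA, the C/EBP pattern, found in 10.8% of promoters, and the second match TATAAA, found in 13.6%. The C1qb window held no match to these letters nor to TTCNNNGAA, the STAT pattern (8.30% of promoters), or to the interferon-stimulated response element (3.44%). A match describes letters only and no binding was measured.

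C1qa, C1qb, and C1qc, the subunits of the recognition molecule of the classical pathway, were macrophage genes in every kidney. C1qa stood at 4610 and 4891 CPM in macrophage-like cells of naive kidneys, 7580 and 7324 CPM in rejecting kidneys, and 7321 and 6313 CPM in tolerized kidneys. C1qb stood at 4408 and 5123, 7844 and 8286, and 8129 and 6934 CPM in the same order. Both genes were thus lower in each naive kidney than in each transplanted one, without a test, because naive kidneys held few macrophage-like cells and were left out of that fit. C1qc did not separate that way, with 2800 and 3642 CPM in naive, 3434 and 4389 CPM in rejecting, and 3931 and 3407 CPM in tolerized kidneys. A C1qa UMI was found in 97.3% and 98.1% of naive, 93.9% and 93.8% of rejecting, and 94.9% and 89.8% of tolerized macrophage-like cells. The widest exact (Clopper-Pearson) 95% interval of these shares was that of the 37 cells of the first naive kidney, 85.8% to 99.9%, and such intervals cover counting error only. Macrophage-like, macrophage/monocyte-like, and conventional DC-like cells together held 96.2% to 99.2% of each kidney's C1qa UMIs. Tolerized and rejecting kidneys did not differ measurably: the log2 fold change was -0.05 ± 0.17 (SE) for C1qa, -0.02 ± 0.17 for C1qb, and -0.01 ± 0.19 for C1qc, with adjusted p of 0.988, 0.996, and 0.998 by edgeR's quasi-likelihood test with Benjamini-Hochberg adjustment (n = 2 kidneys per group). These p values measure the spread between the kidneys of a group. With the 10% threshold, which left another cluster as the macrophage-like cells of grafts, the values were -0.74, -0.62, and -0.61 (adjusted p of 0.426, 0.647, and 0.672).

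**Figure D1:**
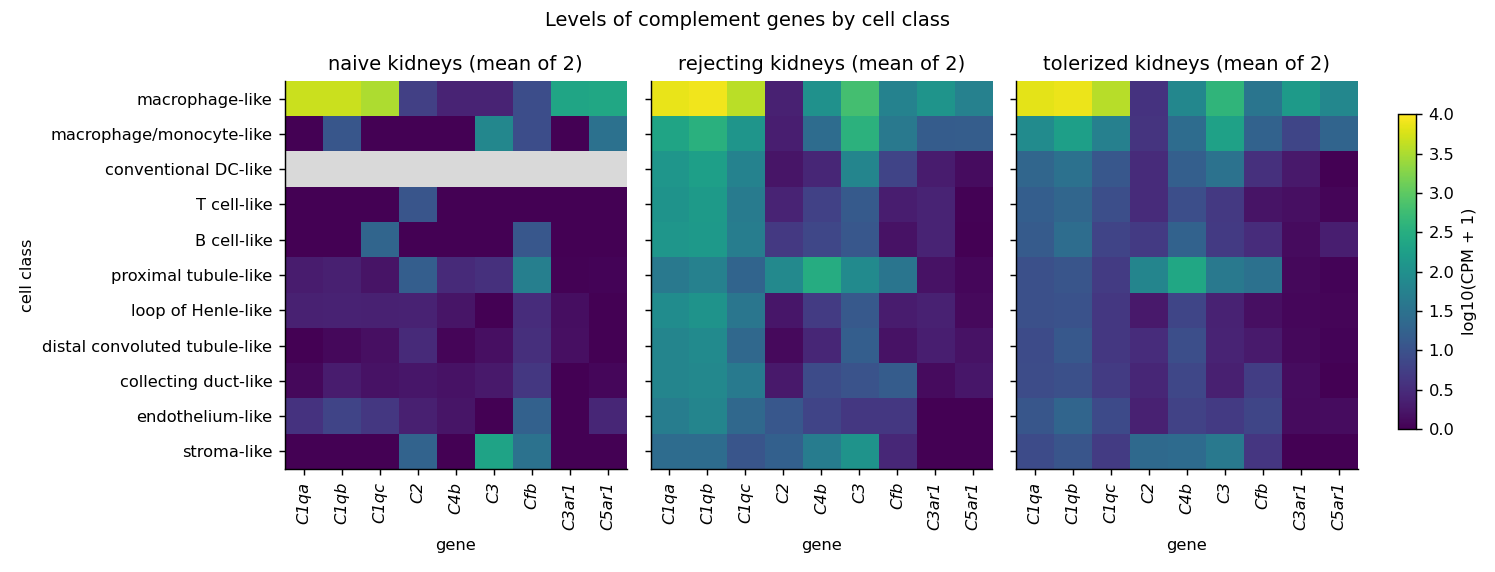
Level of each complement gene (CPM of summed raw UMIs, log scale) by class of cells, as the mean over kidneys of a group. C1qa, C1qb, and C1qc stand at 2800 to 8286 CPM in single kidneys' macrophage-like cells, C4b and C2 are highest in proximal tubule-like cells of transplanted kidneys, and C3 is found in myeloid, proximal tubule-like, and stroma-like cells.

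RNA freed from lysed cells enters every droplet of a suspension, so C1q outside macrophage-like cells was set beside its level in T cells, which do not make it. C1qa reached 192 and 34.6 CPM in T cell-like cells of rejecting kidneys and 18.9 and 10.0 CPM in those of tolerized kidneys, and was at 0 in both naive kidneys. Proximal tubule-like cells held 63.6 and 16.8 CPM in rejecting, 12.3 and 4.57 CPM in tolerized, and 0.429 and 1.58 CPM in naive kidneys. In each graft this was less CPM than in T cell-like cells, but CPM depend on depth. C1qa UMIs numbered 904, 124, 436, and 166 in the 2141, 1131, 3527, and 2277 proximal tubule-like cells of the grafts. They numbered 1469, 275, 163, and 51 in the 3411, 2559, 1668, and 907 T cell-like cells. Per cell, proximal tubule-like cells thus held more in all grafts but the first rejecting kidney. A C1qa UMI was counted in 32.7%, 9.46%, 10.3%, and 6.85% of proximal tubule-like cells of the transplanted kidneys (median depths of 4918, 4374, 7091, and 11237 UMIs) and in 34.1%, 9.38%, 8.93%, and 5.29% of T cell-like cells (1308, 2715, 4618, and 4816 UMIs). Thinned to 1000 UMIs per cell, these shares were 10.3%, 2.71%, 1.52%, and 0.712% against 18.0%, 3.61%, 2.82%, and 0.680%. Macrophage markers were found there too, and the C1qa level in proximal tubule-like cells relative to macrophage-like cells was 0.651, 0.449, 0.527, and 0.524 times the same ratio for the 11 macrophage markers in the transplanted kidneys, and 0.719, 0.679, 0.619, and 0.545 times in T cell-like cells. Where the C1q RNA counted in proximal tubule-like cells came from was not tested.

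**Figure D2:**
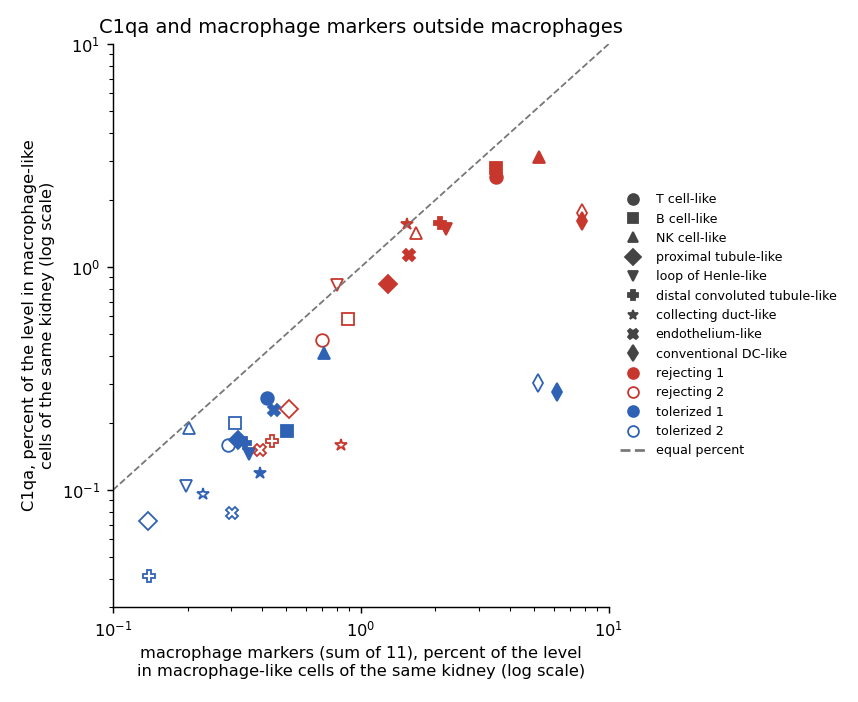
C1qa in classes other than macrophage-like cells, as a percent of its level in macrophage-like cells of the same kidney, for each transplanted kidney. It is set against the same percent for the macrophage marker sum, and the dashed line marks equal percents. T cell-like cells of the first rejecting kidney are at 2.53% for C1qa and 3.52% for the markers. Its proximal tubule-like cells are at 0.839% and 1.29%.

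C1qa levels of proximal tubule-like cells were below the T cell-like ones in CPM in each graft, but per cell only in the first rejecting kidney. They passed the test against naive kidneys, so the fits are given. In proximal tubule-like cells C1qa was called higher in rejecting than in naive kidneys, by a log2 of 4.99 ± 0.80 (adjusted p = 0.00176), and in tolerized than in naive kidneys, by 2.87 ± 0.79 (adjusted p = 0.0249). Tolerized and rejecting kidneys differed by -2.12 ± 0.62 (adjusted p = 0.241), and all 3 C1q genes were below the rejecting values in both tolerized kidneys, as were 36.6% of all genes tested. Loop of Henle-like cells held 113 and 61.0 CPM of C1qa in rejecting and 10.6 and 6.58 CPM in tolerized kidneys, and the fall of -3.37 ± 0.35 passed (adjusted p = 0.00214), as did C1qb (-3.72 ± 0.42, adjusted p = 0.00245) and C1qc (-3.45 ± 0.39, adjusted p = 0.00245). In the first rejecting kidney C1qa in these cells was below its T cell-like level in CPM. Per cell it was above that level, with 218 UMIs in 418 loop of Henle-like cells and 1469 in 3411 T cell-like cells. In the second rejecting kidney all 3 genes were above the T cell-like CPM. The values were 61.0 against 34.6 CPM for C1qa, 71.1 against 49.8 CPM for C1qb, and 31.8 against 19.2 CPM for C1qc. The macrophage marker sum of loop of Henle-like cells was 495 and 191 CPM in rejecting and 92.1 and 46.5 CPM in tolerized kidneys. With at most 20% mitochondrial UMIs per cell, the C1qa difference there was -1.71 (adjusted p = 0.839), with doublets kept -2.33 (adjusted p = 0.0738), and without the second tolerized kidney -3.07 (adjusted p = 0.0829). Of the members tested between tolerized and rejecting kidneys, 4 of 5 were called lower in loop of Henle-like cells, where 0.382% of all genes tested were.

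Dendritic cells are known to make some C1q, and conventional DC-like cells, with 202 and 211 cells in the rejecting pair and 128 and 122 in the tolerized pair, held 122 and 127 CPM of C1qa in rejecting kidneys and 20.1 and 19.1 CPM in tolerized kidneys. Both tolerized kidneys lay below both rejecting ones. The difference was -2.54 ± 0.26 on the log2 scale for C1qa (adjusted p = 0.0125), -2.47 ± 0.24 for C1qb (adjusted p = 0.0125), and -2.27 ± 0.31 for C1qc (adjusted p = 0.0353), 3 of the 5 members tested, whereas 0.0649% of all genes tested were called lower. The macrophage marker sum in the same cells was 1751 and 1877 CPM in rejecting and 1612 and 1226 CPM in tolerized kidneys, whereas the sum of the 10 T cell markers there fell along with C1qa, from 162 and 109 CPM to 18.4 and 16.5 CPM. T cell-like cells of the first rejecting kidney held more C1qa in CPM (192 CPM) than its DC-like cells. Per cell the order turned, with 1469 UMIs in 3411 T cell-like cells and 181 in 202 DC-like cells. In the other grafts the T cell-like level was the lower one. It was 34.6 against 127 CPM in the second rejecting kidney, and 18.9 against 20.1 and 10.0 against 19.1 CPM in the tolerized kidneys. Macrophage RNA picked up by these cells and doublets with macrophages were not separated from RNA of their own, and the part of free RNA in the difference was not tested. With the replicate number as a block, none of the 3 passed (adjusted p of 0.0867, 0.0867, and 0.106). When called doublets were kept, the C1qa difference was -0.55 (adjusted p = 0.948), and at a clustering resolution of 0.8 it was -2.50 (adjusted p = 0.0691). Macrophage/monocyte-like cells, which carry both marker lists, held no C1qa UMI in naive kidneys, 202 and 222 CPM in rejecting, and 146 and 23.6 CPM in tolerized kidneys. There, 0 of 8 members passed (0% of 9151 genes tested, 658 of them and 3 members with an unadjusted p under 0.05), and DESeq2 also called 0 of the 8. In both tolerized kidneys 5 of the 8 lay below the rejecting values, as did 21.5% of all genes tested.

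C4b and C2, whose products form the convertase of the classical and lectin pathways, were highest in proximal tubule-like cells of transplanted kidneys. C4b stood at 2.33 and 1.58 CPM in naive proximal tubule-like cells, 342 and 248 CPM in rejecting, and 268 and 216 CPM in tolerized ones. A C4b UMI was found in 0.928% and 0.608% of naive cells, 65.7% and 54.9% of rejecting cells, and 67.4% and 68.9% of tolerized cells, and the exact 95% intervals of the grafts began at 52.0% or higher. The naive kidneys thus lay apart from all 4 grafts, whereas rejecting and tolerized values overlapped. C4b was higher in rejecting than in naive kidneys by a log2 of 6.76 ± 0.29 (adjusted p = 1.79e-06) and in tolerized than in naive kidneys by 6.66 ± 0.29 (adjusted p = 2.09e-06), and tolerized differed from rejecting by -0.10 ± 0.21 (adjusted p = 0.928). These comparisons share the naive kidneys. All 6 of the transplanted proximal tubule-like clusters that held most of these cells carried C4b, at 178 to 385 CPM in each kidney, and a small cluster held the injury gene Havcr1 (199 to 246 CPM) and 75.5 to 157 CPM of C4b in the 3 grafts with at least 20 of its cells. Its 108 and 132 naive cells held 2.33 and 3.45 CPM of Havcr1 and no C4b UMI.

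Macrophage-like cells of grafts also held C4b, at 103 and 104 CPM in rejecting and 92.0 and 50.1 CPM in tolerized kidneys, against 0 and 3.09 CPM in naive ones. A C4b UMI was found in 29.0% and 30.6% of rejecting and 34.7% and 24.1% of tolerized macrophage-like cells. This was 30.3%, 41.9%, 34.3%, and 23.2% of the proximal tubule-like level in the 4 grafts, whereas the 15 proximal tubule markers reached 0.719%, 0.214%, 0.764%, and 2.17% there. In T cell-like cells the C4b ratio was 2.60%, 0.355%, 1.95%, and 5.20%, close to the 2.12%, 0.488%, 1.15%, and 3.76% of the markers. Relative to proximal tubule-like cells, C4b was thus well higher in macrophage-like than in T cell-like cells, and its source there was not tested. Of C4b UMIs of the second rejecting kidney, 41.1% lay in macrophage-like cells, compared with 19.1% in the first and 12.4% and 2.76% in the tolerized kidneys. These shares depend on cell numbers as well as levels. Tolerized and rejecting macrophage-like cells differed by -0.46 ± 0.27 in C4b (adjusted p = 0.890).

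C2 was more restricted. Proximal tubule-like cells held 88.9% to 95.4% of each kidney's C2 UMIs, at 17.2 and 12.1 CPM in naive, 74.5 and 74.9 CPM in rejecting, and 67.8 and 60.9 CPM in tolerized kidneys. Every graft lay above both naive kidneys, and C2 was higher by a log2 of 1.89 ± 0.20 in rejecting (adjusted p = 0.000264) and 1.87 ± 0.20 in tolerized kidneys (adjusted p = 0.000334). Tolerized and rejecting differed by -0.02 ± 0.19 (adjusted p = 0.986). Macrophage-like cells held 1.38 and 1.20 CPM of C2 in rejecting and 2.37 and 3.41 CPM in tolerized kidneys, a difference of 1.20 ± 0.46 with an unadjusted p of 0.0369 and an adjusted p of 0.832.

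C3, the protein on which all pathways converge, was counted in several classes, whose shares of its UMIs differed between naive and transplanted kidneys. Macrophage-like cells held 0 and 3.09 CPM in naive, 809 and 464 CPM in rejecting, and 428 and 401 CPM in tolerized kidneys. A C3 UMI was found in 0 of 37 (exact upper limit 9.49%) and 1 of 103 naive macrophage-like cells and in 80.8%, 75.3%, 77.7%, and 68.4% of those of the grafts, or 45.6%, 28.1%, 28.2%, and 24.4% after thinning to 1000 UMIs. Both tolerized kidneys lay below both rejecting kidneys, yet the difference of -0.54 ± 0.28 did not pass (adjusted p = 0.866), nor did the -1.41 found with the 10% marker threshold (adjusted p = 0.179). Macrophage/monocyte-like cells held C3 in naive kidneys as well, at 98.6 and 43.2 CPM, compared with 449 and 282 CPM in rejecting and 229 and 151 CPM in tolerized kidneys. Tolerized lay below rejecting there too, by -0.91 ± 0.28 (unadjusted p = 0.0125, adjusted p = 0.561), and without the second rejecting kidney the value was -1.22 (adjusted p = 0.0430).

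Proximal tubule-like cells held 2.00 and 3.09 CPM of C3 in naive, 81.6 and 80.6 CPM in rejecting, and 56.2 and 24.4 CPM in tolerized kidneys. Naive, tolerized, and rejecting values did not overlap. Of all genes tested, 36.6% lay lower in tolerized than in rejecting kidneys without overlap, and 60.1% and 50.2% lay above naive in rejecting and tolerized kidneys. C3 was higher than in naive kidneys by a log2 of 4.57 ± 0.38 in rejecting (adjusted p = 6.53e-05) and 3.72 ± 0.37 in tolerized kidneys (adjusted p = 0.000198), and tolerized differed from rejecting by -0.85 ± 0.31 (adjusted p = 0.337). T cell-like cells of the grafts held 19.9, 5.41, 5.11, and 1.97 CPM. Relative to macrophage-like cells, C3 in proximal tubule-like cells was 7.83, 34.0, 41.2, and 44.1 times what the macrophage markers gave, and 0.698, 1.68, 2.86, and 1.68 times in T cell-like cells. The source of the tubular C3 was not tested. C3 was uneven over proximal tubule-like clusters, of which one held 148, 183, 111, and 12.4 CPM of C3 in the 4 grafts and another no more than 34.4 CPM in any graft.

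Other kidney classes held less C3. In distal convoluted tubule-like cells C3 stood at 0 and 0.895 CPM in naive, 12.4 and 17.4 CPM in rejecting, and 1.93 and 1.04 CPM in tolerized kidneys, with a log2 rise of 5.01 ± 0.74 over naive in rejecting kidneys (adjusted p = 0.00102) and a difference of -3.31 ± 0.53 between tolerized and rejecting (adjusted p = 0.0544). With the replicate number as a block that difference passed (-3.32, adjusted p = 0.0257). In CPM, which depend on depth, T cell-like cells held more C3 than these cells in the first rejecting kidney (19.9 against 12.4 CPM). They also held more in both tolerized kidneys (5.11 and 1.97 CPM), and less in the second rejecting kidney (5.41 against 17.4 CPM). In loop of Henle-like cells C3 was at 0 in both naive kidneys and at 16.5 and 7.42 CPM in rejecting kidneys, at least 8.17-fold higher when 3 UMIs over the naive group are taken as the floor (adjusted p = 0.00665), and it was lower in tolerized kidneys (1.65 and 1.10 CPM, -3.14 ± 0.56, adjusted p = 0.0430). In CPM, only the second rejecting kidney of the grafts lay above its T cell-like level there. Collecting duct-like cells, at 15.4 and 3.87 CPM in rejecting kidneys, lay below it in both, but CPM depend on depth. Per cell the order turned: 104 and 106 collecting duct-like cells of the rejecting kidneys held 17 and 6 C3 UMIs. The 3411 and 2559 T cell-like cells of these kidneys held 152 and 43. Without the first rejecting kidney the tolerized difference in loop of Henle-like cells was -2.40 (adjusted p = 0.612), without the first tolerized kidney -3.33 (adjusted p = 0.232), and without the second -2.85 (adjusted p = 0.660). Stroma-like cells, named from fibroblast and mural cell markers, held the largest part of C3 UMIs in naive kidneys, with 66.1% and 47.3% of C3 UMIs from 75 and 58 cells. Their C3 level was 253 and 160 CPM in naive, 19.8 and 202 CPM in rejecting (23 and 35 cells), and 32.7 and 46.8 CPM in tolerized kidneys (33 and 54 cells). The rejecting pair did not separate from naive (-0.78 ± 0.65, adjusted p = 0.508), and without the second rejecting kidney the value was -3.40 (adjusted p = 0.0147), and without the first -0.08 (adjusted p = 0.934). The class name is doubtful in the first rejecting kidney, whose 23 cells held 69.2 CPM of the 11 stroma markers, compared with 9137 CPM in the second and 967 and 4562 CPM in naive kidneys, and 563 CPM of T cell and 435 CPM of podocyte markers. C4b in stroma-like cells was at 0 in naive and at 9.88 and 85.0 CPM in rejecting kidneys, at least 12.7-fold higher (adjusted p = 0.0381), a call that rests on 2 and 48 UMIs and ended without either naive kidney (adjusted p of 0.236 and 0.163) or without the second rejecting kidney (adjusted p = 0.235).

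**Figure D3:**
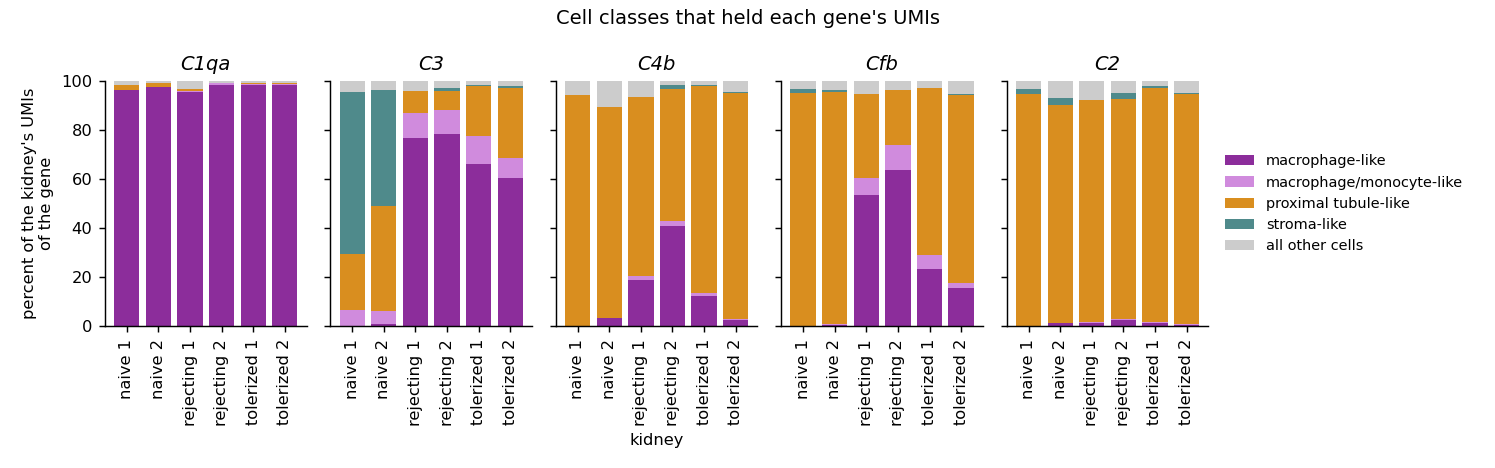
Share of each kidney's UMIs (percent) of C1qa, C3, C4b, C2, and Cfb that lay in each group of cell classes. Shares depend on the number of cells of a class as well as on its level. Macrophage-like, macrophage/monocyte-like, and conventional DC-like cells together held 6.56% and 6.36% of C3 UMIs in naive kidneys and 69.1% to 89.3% in grafts, and 0.0727% and 0.853% of Cfb UMIs in naive kidneys and 18.0% to 74.9% in grafts.

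Cfb, which encodes factor B of the alternative pathway, had nearly all of its UMIs in tubular cells of naive kidneys and a larger share in myeloid cells of grafts. Proximal tubule-like cells held 62.3 and 43.7 CPM in naive, 23.2 and 47.3 CPM in rejecting, and 30.9 and 28.4 CPM in tolerized kidneys. The second rejecting kidney lay within the naive range, whereas both tolerized kidneys lay below it. The fitted difference from naive was -1.05 ± 0.32 in rejecting (adjusted p = 0.0271) and -1.09 ± 0.31 in tolerized kidneys (adjusted p = 0.0280). Both calls depended on the scaling. With total UMIs in place of TMM, which moved the median of all genes to 0.51 and 0.31, Cfb gave -0.60 (adjusted p = 0.122) and -0.84 (adjusted p = 0.0509), and with at most 20% mitochondrial UMIs per cell -0.58 (adjusted p = 0.170) and -0.64 (adjusted p = 0.141). The rejecting call also ended without the first naive kidney (-0.77, adjusted p = 0.164) or the first rejecting kidney (-0.62, adjusted p = 0.121), and the tolerized call without the first naive (-0.80, adjusted p = 0.176), the first tolerized (-1.06, adjusted p = 0.0992), or the second tolerized kidney (-1.13, adjusted p = 0.0879). Tolerized and rejecting kidneys differed by -0.04 ± 0.31 (adjusted p = 0.983).

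Macrophage-like cells held 0 and 15.5 CPM of Cfb in naive, 42.0 and 75.4 CPM in rejecting, and 25.0 and 45.4 CPM in tolerized kidneys. Their level was 181%, 159%, 81.0%, and 160% of that in proximal tubule-like cells of the same graft. Together with macrophage/monocyte-like and conventional DC-like cells they held 61.1% and 74.9% of Cfb UMIs in rejecting and 29.4% and 18.0% in tolerized kidneys. Tolerized and rejecting macrophage-like cells overlapped in Cfb (-0.67 ± 0.37, adjusted p = 0.875). In collecting duct-like cells Cfb stood at 4.14 and 2.88 CPM in naive and 6.36 and 20.6 CPM in rejecting kidneys (1.92 ± 0.55, adjusted p = 0.0331), but without the second rejecting kidney the value was 0.75 (adjusted p = 0.515), and without either naive kidney or by DESeq2 it did not pass (adjusted p of 0.113, 0.186, and 0.0570).

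The receptors were myeloid genes. C3ar1, which encodes the receptor for C3a, stood at 149 and 297 CPM in macrophage-like cells of naive kidneys, 100 and 130 CPM in rejecting, and 180 and 120 CPM in tolerized kidneys. Mast cell/basophil-like cells of the grafts held 286 and 179 CPM in rejecting and 188 and 37.1 CPM in tolerized kidneys, from 41, 27, 36, and 4 cells. C5ar1, which encodes the main C5a receptor, stood at 245 and 235 CPM in naive macrophage-like cells and at 44.9 and 67.7 CPM in rejecting and 73.6 and 67.6 CPM in tolerized ones, so all grafts lay below both naive kidneys. Macrophage/monocyte-like cells held 16.4 and 43.2 CPM of C5ar1 in naive kidneys and 5.65 to 23.0 CPM in grafts, which overlapped. Neutrophil-like cells of the grafts, 35 to 43 per kidney, held 143 and 315 CPM of C5ar1 in rejecting and 410 and 366 CPM in tolerized kidneys, and naive kidneys held no such cell. Tolerized and rejecting macrophage-like cells differed by 0.46 ± 0.23 in C3ar1 (adjusted p = 0.858) and 0.41 ± 0.22 in C5ar1 (adjusted p = 0.866), and both signs turned, to -0.45 and -0.37, when clusters were named from markers found in at least 10% rather than 20% of their cells. Proximal tubule-like cells held at most 0.563 CPM of C3ar1 and 0.211 CPM of C5ar1, and stroma-like cells held no UMI of either.

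**Figure D4:**
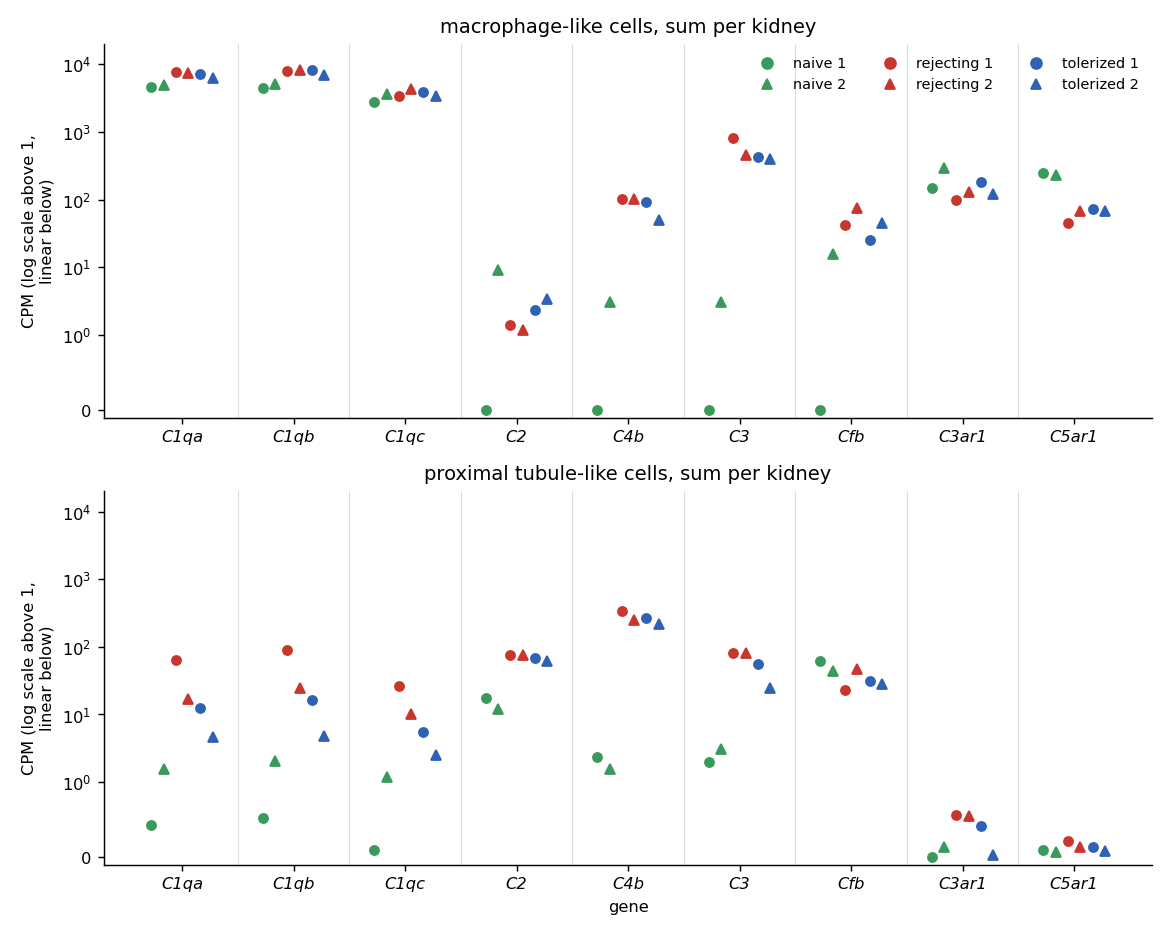
Level per kidney (CPM of summed raw UMIs, log scale) of the complement genes in macrophage-like and proximal tubule-like cells, with 1 point per kidney. C4b in proximal tubule-like cells is at 2.33 and 1.58 CPM in naive kidneys and 216 to 342 CPM in grafts, and C5ar1 in macrophage-like cells is at 235 and 245 CPM in naive kidneys and 44.9 to 73.6 CPM in grafts.

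Counted over the members, tolerized and rejecting macrophage-like cells differed in 0 of 9 genes (0% of 11619 genes tested were called, 693 of them and 1 member had an unadjusted p under 0.05, and DESeq2 called 36 genes and 0 members). C1qa, C3, and C4b lay lower in both tolerized kidneys and C2 higher, against 24.9% of all genes tested lying lower and 12.6% higher without overlap. In proximal tubule-like cells 0 of 7 members tested differed between tolerized and rejecting kidneys (0% of 12649 genes tested were called, 1417 of them and 4 members had an unadjusted p under 0.05, and DESeq2 called 188 genes and 0 members). C3ar1 and C5ar1 did not pass the filter on low counts there. All 7 members tested differed from naive in rejecting kidneys, 6 of them higher, where 42.1% of all genes tested were called, 22.8% as higher, and 54.3% of the calls were higher, or 82.1% with total UMIs in place of TMM. The same 7 differed in tolerized kidneys, where 32.5% of genes were called, 17.3% as higher, and 53.0% of the calls were higher, or 75.6% with total UMIs. Both counts include C1qa, C1qb, and C1qc, whose source in these cells was not tested. The tolerized count was 3 without the first naive or the first tolerized kidney and 6 by DESeq2. C4b, C3, and C2 had log2 values of 7.21, 5.01, and 2.34 over naive in rejecting kidneys with total UMIs.

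Counts in the other classes were carried mostly by C1q. Rejecting and naive kidneys differed in 4 of 5 members in loop of Henle-like cells (beside 17.1% of genes tested), 4 of 5 in distal convoluted tubule-like cells (22.8%), 5 of 6 in collecting duct-like cells (19.7%), 2 of 2 in endothelium-like cells (15.1%, none of the 2 by DESeq2), and 1 of 3 in stroma-like cells (6.91%). Of these 16 calls, 11 were of C1qa, C1qb, or C1qc, which stood below the T cell-like CPM in both rejecting kidneys with these exceptions: all 3 in loop of Henle-like cells of the second kidney, where C1qa was at 61.0 CPM against 34.6 CPM, and C1qc in collecting duct-like cells of the first, at 76.3 CPM against 70.8 CPM. This order depends on depth. In the first rejecting kidney 104 collecting duct-like cells held 130 C1qa UMIs and 3411 T cell-like cells held 1469, more per collecting duct-like cell. In the second, 48 endothelium-like cells held 4 and 2559 T cell-like cells held 275, fewer per endothelium-like cell. The source of C1q in these classes was not tested. The other 5 were C3 in the first 3 of these classes, Cfb in collecting duct-like cells, and C4b in stroma-like cells. Tolerized and rejecting kidneys differed in no member in distal convoluted tubule-like (0.0294% of genes tested), collecting duct-like (0.00913%), endothelium-like (0%), and stroma-like cells (0.0131%), although 5, 5, 2, and 0 of the members tested had an unadjusted p under 0.05 and DESeq2 called 1 in distal convoluted tubule-like cells.

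**Figure D5:**
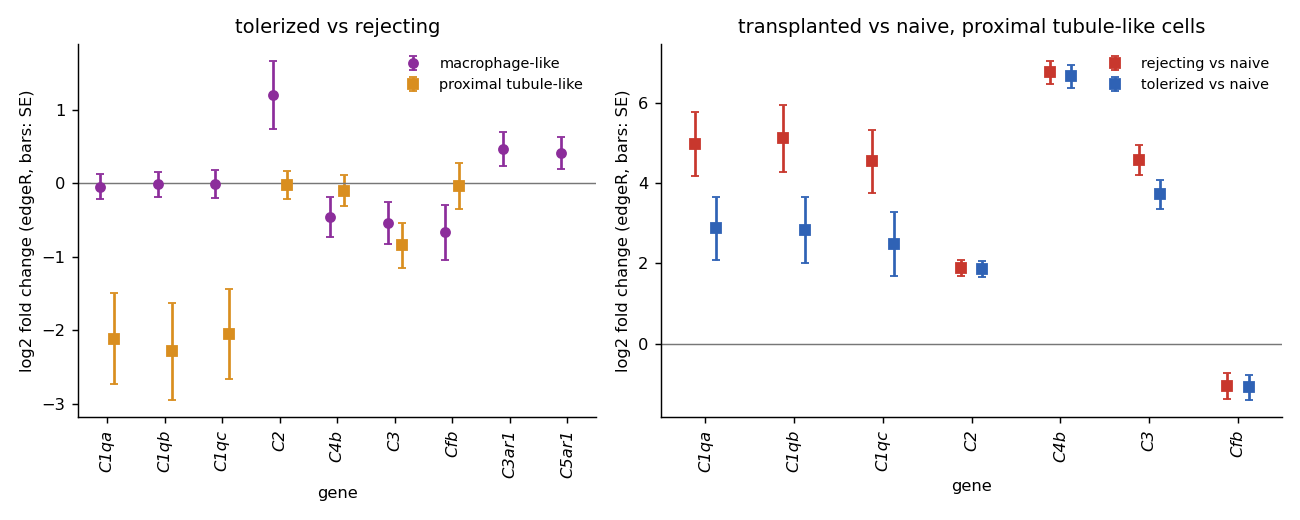
Log2 fold change with its SE for each complement gene in macrophage-like and proximal tubule-like cells. C4b, C3, and C2 in proximal tubule-like cells lie above 0 against naive kidneys, with 6.76, 4.57, and 1.89 in rejecting kidneys, and no tolerized against rejecting value passed the test in these classes.

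Of 46 other complement genes found in all matrices, 26 passed the filter in proximal tubule-like cells. Between rejecting and naive kidneys 13 rose, 5 fell, and 8 did not pass, with a median log2 of 0.96 beside 0.07 over all genes tested. Of all genes tested, 22.8% were called higher and 19.2% lower, so the part that fell was near that of all genes. Between tolerized and naive kidneys 9 rose and 3 fell, with a median of 0.35 beside 0.06, where 17.3% of all genes were called higher and 15.3% lower. None passed between tolerized and rejecting kidneys. The risers included the C1 proteases: C1ra stood at 1.05 and 1.12 CPM in naive, 37.0 and 19.7 CPM in rejecting, and 10.1 and 17.2 CPM in tolerized kidneys, and C1rb, at 0 in naive kidneys, was at least 112-fold higher in rejecting kidneys (4.36 and 14.1 CPM). Masp1, a protease of the lectin pathway, was at least 33.5-fold higher and Itgax, a chain of complement receptor 4, at least 14.7-fold. Itgax, Itgam, and Itgb2 are leukocyte genes, and the macrophage marker sum in these cells was 290 and 122 CPM in rejecting kidneys, or 1.29% and 0.511% of that in macrophage-like cells, and 0.134% and 0.210% in naive kidneys, whose part in their rise was not tested. Serping1, which encodes the inhibitor of C1, rose with them, from 0.143 and 0.263 CPM in naive to 22.4 and 15.3 CPM in rejecting and 22.1 and 9.80 CPM in tolerized kidneys (6.13 ± 0.54 in rejecting, adjusted p = 8.69e-05). Among those that fell, C8g, a chain of the terminal component C8, went from 23.5 and 20.4 CPM to 5.42 and 3.66 CPM in rejecting kidneys (-2.68 ± 0.28, adjusted p = 0.000211), and Mbl1, a lectin of the lectin pathway, fell by 2.83 on the log2 scale (adjusted p = 0.000554). Cd59b, C8a, and Clu were the other 3.

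The regulators differed by class. Serping1 stood at 7.04 and 3.39 CPM in endothelium-like cells of naive kidneys, 318 and 168 CPM in rejecting, and 156 and 121 CPM in tolerized kidneys (5.54 ± 0.47 in rejecting, adjusted p = 0.000166), and Clu, which encodes the terminal pathway inhibitor clusterin, went from 273 and 247 CPM to 5.60 and 19.3 CPM in rejecting and 27.3 and 63.1 CPM in tolerized kidneys (-4.64 ± 0.56 in rejecting, adjusted p = 0.000855). Within the endothelium-like cluster that held cells of all kidneys, Serping1 stood at 13.9 and 3.62 CPM in naive and 120 to 318 CPM in grafts, and Clu at 323 and 196 CPM in naive and 5.60 to 63.7 CPM in grafts. In macrophage-like cells Cfp, which encodes properdin, a stabilizer of the alternative convertase, stood at 63.9 and 40.2 CPM in naive and 276 to 373 CPM in grafts, without a test, whereas it stood at 73.9 and 71.9 CPM in naive and 21.3 to 78.2 CPM in graft macrophage/monocyte-like cells. Itgam and Itgax, chains of complement receptors 3 and 4, ranged over 37.1 to 113 CPM and 82.1 to 146 CPM in grafts, and C5ar2, the second C5a receptor, over 4.22 to 5.54 CPM in grafts beside 31.9 and 18.5 CPM in naive kidneys. None of 20 other complement genes tested differed between tolerized and rejecting macrophage-like cells. Cd59a, which blocks the membrane attack complex, rose in proximal tubule-like cells of both graft groups, from 7.76 and 6.76 CPM to 16.7 and 25.0 CPM in rejecting and 21.0 and 27.3 CPM in tolerized kidneys (1.05 ± 0.27, adjusted p = 0.0136, and 1.49 ± 0.26, adjusted p = 0.00366).

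Summed over all cells of a kidney, 7 of 9 members were higher in rejecting than in naive kidneys, where 29.4% of genes were called higher. In such sums, fewer cells of a type and less RNA per cell cannot be told apart. C1qa was at 14.9 and 70.8 CPM in naive, 2070 and 2394 CPM in rejecting, and 1386 and 392 CPM in tolerized kidneys (5.41 ± 0.91 in rejecting over naive, adjusted p = 0.00325). C3 was at 6.05 and 4.81, 275 and 191, and 120 and 40.7 CPM (5.10 ± 0.54, adjusted p = 0.000775), and C4b at 1.72 and 1.22, 141 and 81.4, and 138 and 111 CPM (5.91 ± 0.38, adjusted p = 0.000254). Every rejecting value of C1qa and C3 thus lay above the tolerized values, and these above the naive ones, whereas the C4b values of the grafts overlapped. Such separation was common: 34% of all genes tested lay lower in tolerized than in rejecting kidneys without overlap. Above naive without overlap lay 49.9% in rejecting and 48.3% in tolerized kidneys. C2 (0.55 ± 0.30, adjusted p = 0.154) and Cfb (-0.71 ± 0.32, adjusted p = 0.102) did not pass. Between tolerized and rejecting kidneys 0 of 9 members passed (0% of 15732 genes tested, 4158 of them and 2 members with an unadjusted p under 0.05), with C3 at -1.48 ± 0.46 (adjusted p = 0.137) and C1qa at -1.27 ± 0.77 (adjusted p = 0.312). DESeq2 called 1807 genes there and 1 member, C3 (-1.52, adjusted p = 0.0188), and without the first tolerized kidney edgeR gave C3 -2.36 (adjusted p = 0.0320).

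Whether the difference between tolerized and rejecting kidneys differed between macrophage-like and proximal tubule-like cells was tested in 1 model over both classes. None of the 9 members passed (0% of 13305 genes tested, 960 of them and 5 members with an unadjusted p under 0.05, 0 members and 28 genes by DESeq2). C1qb had the largest term, 2.13 ± 0.66 (adjusted p = 0.458). C1qc followed at 1.93 ± 0.54 (adjusted p = 0.429) and C1qa at 1.85 ± 0.60 (adjusted p = 0.481). These C1q terms rest in part on the levels in proximal tubule-like cells, whose source was not tested. C2 stood at 1.11 ± 0.34 (adjusted p = 0.458), C3 at 0.39 ± 0.39 (adjusted p = 0.941), and C4b at -0.49 ± 0.30 (adjusted p = 0.869).

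Across 81 sums of 1 class in 1 kidney, the genes whose log2(CPM + 1) was most like that of C1qa, among 14599 genes, were C1qb (Pearson r = 0.970), C1qc (0.961), and Ms4a7 (0.841), a macrophage marker used to name the classes. C3 was most like Tkt (0.760), Lrp1 (0.754), and Sirpa (0.748). C4b was most like Angptl7 (0.749), Kctd17 (0.722), and Sectm1a (0.675), and Cfb most like Atp6v1b2 (0.702), Mfsd1 (0.685), and Tmem106a (0.668). These are descriptions, because sums of 1 kidney share a library and its free RNA.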

How the data were processed

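Cells of 2 naive, 2 rejecting, and 2 tolerized kidneys were analyzed, grouped by the sample titles. The authors deposited 1 matrix of raw UMI counts per kidney, made with Cell Ranger after alignment to mm10 and not normalized. All values were whole numbers.

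Barcodes needed 500 or more UMIs from 250 or more genes, no more than 50% of them mitochondrial, which left 49797 of 60181. Doublets were scored with Scrublet per kidney, and the highest scores were removed, at 0.8% per 1000 barcodes, leaving 45667 cells. Clustering without complement genes used scanpy 1.11.5, 2500 variable genes, 40 principal components, 20 neighbors, and Leiden at resolution 1.5 (igraph 0.11.9, leidenalg 0.10.2). Of 46 clusters, 40 were named, from at least 3 markers found in at least 20% of cells and at 2 times the mean over clusters. The 20% was raised from 10% after the marker counts were seen and before any complement value, which named 2 clusters (3525 and 182 cells) macrophage-like that had been macrophage/monocyte-like.

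Levels are raw CPM of UMIs summed per kidney and class. Sums of classes with at least 20 cells in each kidney were filtered with filterByExpr and TMM-scaled, and edgeR 4.0.16 in R 4.3.3 gave quasi-likelihood tests, with Benjamini-Hochberg adjustment over all genes tested and a threshold of 0.05. Immune classes were fitted on rejecting and tolerized kidneys, kidney classes and whole kidneys on all 6. Fold changes are fitted on this scale, so they can differ from ratios of raw CPM. On simulated macrophage sums, 41.2% of genes changed by a log2 of 1 and 86.9% of those changed by 2 were called. On simulated proximal tubule sums these shares were 48.5% and 88.7%. Each simulated gene was given the fitted trend of the spread, so the shares do not cover genes with a larger spread. Alternatives were DESeq2 1.42.0, its size factors, no filter, a replicate block, Leiden resolution 0.8, no doublet removal, a minimum of 1000 UMIs, a maximum of 20% mitochondrial UMIs, cells thinned to 1000 UMIs, T cell markers for the background check, and each kidney left out. Markers in 10% of cells and total UMIs in place of TMM were added after the data were seen. Scripts used matplotlib 3.10.9, scikit-learn 1.9.0, pandas 2.3.3, scipy 1.17.1, and numpy 2.4.6 under Python 3.11.15.

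The members, the gene lists, and the tests were chosen with earlier results of these data known. Named genes are the 9 members, the other complement genes past the threshold with the largest fold changes (up to 5 per class and comparison), listed receptors and regulators by value, and the 3 genes most like C1qa, C3, C4b, and Cfb among those with at least 10 CPM in a sum. Positions are those of GRCm38. Promoters were taken from RefSeq.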

Additional observations from a re-analysis of the deposited data

How the results depend on the processing

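Depth limits the naive immune classes and, with 2 kidneys per group, a difference of a log2 of 1 was called in less than 50% of simulated cases. For these checks 56 fold changes of members were chosen by name, of which 27 passed, and over 416 alternatives none of these reversed. In settings that kept all kidneys, 24 alternatives no longer passed, and further ones did not pass with a kidney left out. The choice left out C1q between rejecting and naive kidneys in the kidney classes other than proximal tubule-like cells, which enters only the counts below. Counts of members called moved as follows. Between tolerized and rejecting proximal tubule-like cells 0 of 7 tested became 4 of 9 with no filter on low counts. Between tolerized and naive proximal tubule-like cells 7 became 3 to 7 with a kidney left out. Between tolerized and rejecting kidneys in the other classes 7 became 3 with at most 20% mitochondrial UMIs, 2 with doublets kept, 25 with no filter, 4 at a resolution of 0.8, 11 with total UMIs, and 4 to 15 with a kidney left out. Between rejecting and naive kidneys there, 16 became 7 with at most 20% mitochondrial UMIs and 8 to 17 with a kidney left out. Whole kidneys, tolerized against rejecting, gave 1 in place of 0 with DESeq2 and 0 to 1 with a kidney left out. The interaction gave 3 in place of 0 with no filter and 0 to 3 with a kidney left out. The numbers of members tested moved too in some settings, so these counts are not shares. With at most 20% mitochondrial UMIs, 7 of 9 tested in the other classes passed between rejecting and naive kidneys. The main fit tested 5, 5, 6, 2, and 3 in loop of Henle-, distal convoluted tubule-, collecting duct-, endothelium-, and stroma-like cells. Between tolerized and rejecting kidneys there, 3 of 22 passed with that limit, 2 of 42 with doublets kept, and 25 of 61 with no filter. The causes were not tested.

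Among the chosen fold changes, signs turned only for those that had not passed. In macrophage-like cells of tolerized against rejecting kidneys, C1qa was 0.031 without the second tolerized kidney, C1qb 0.00096 without the second rejecting and 0.069 without the second tolerized kidney, and C1qc 0.00013 with at most 20% mitochondrial UMIs and -0.17 to 0.16 with a kidney left out (0.16 without the second rejecting, 0.067 without the second tolerized), and C3ar1 and C5ar1 were -0.45 and -0.37 with markers in 10% of cells. In proximal tubule-like cells C2 was 0.012 with no filter, C4b -0.30 to 0.16 (the highest without the first rejecting kidney), and Cfb -0.47 to 0.56 (the highest without the second). The C3 interaction was -0.53 with markers in 10% of cells and -0.14 to 0.89 with a kidney left out (-0.14 without the second tolerized, -0.02 without the second rejecting), and whole kidney C4b was -0.11 to 0.72 (the lowest without the second rejecting).

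Thinned to 1000 UMIs, the median share of cells with a UMI over the 4 grafts went from 93.8% to 90.7% for C1qa and from 76.5% to 28.1% for C3 in macrophage-like cells, and from 16.3% to 4.32% for C3, from 66.5% to 21.8% for C4b, and from 9.86% to 2.11% for C1qa in proximal tubule-like cells.

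The study describes 2 experiments, but no label says that a replicate number marks one, and the correlations of same-numbered kidneys' deviations ranged from -0.15 to 0.08. With the replicate number as a block, the members called were the same genes in proximal tubule-like cells (0 and 7) and between rejecting and naive kidneys in the other classes (16), and whole kidneys kept a count of 7. Between tolerized and rejecting kidneys in the other classes the count was 7 in both fits but not the same genes: C1qa, C1qb, and C1qc in conventional DC-like cells no longer passed (-2.54, -2.48, and -2.26, adjusted p of 0.0867, 0.0867, and 0.106), and C1qa, C1qb, and C3 in distal convoluted tubule-like cells did (-3.00, -2.59, and -3.32, adjusted p of 0.00547, 0.0102, and 0.0257).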
